A study of Mus musculus with 12 samples.

Results

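The type I interferon response genes followed here are a fixed list of 34 genes that cells switch on after interferon α or β binds its receptor. The rows of the deposited mouse matrix that carry these symbols were taken as the members, which gave 33 of the 34 genes among 32285 genes in all; Mx1 was not analysed here. Members were matched to the matrix by symbol. T cells from the brain parenchyma of 9-month-old female mice were measured in 6 pools, with 5′ single-cell RNA libraries and matching T cell receptor libraries. WT-1 and WT-2 pooled 10 and 8 wild-type mice, 5XFAD-1 and 5XFAD-2 pooled 4 and 3 mice hemizygous for the 5XFAD amyloid transgenes, PS19 pooled 4 mice hemizygous for PS19, and PS-5X pooled 4 bigenic mice that carried both. PS19 is mutant human MAPT (tau) under the mouse prion protein promoter from a line on the B6C3F1/J background, 5XFAD came from a line congenic on C57BL6, and all groups were female littermates of a colony bred from the cross of the 2 lines. Perfused brains were digested with enzymes and passed over Percoll, and the sort collected CD8+, CD4+ and γδ+ T cells together. Per the labels, a separate sequencing run held 5XFAD-2 and WT-2. Each pool is 1 sample of several animals, so that every p-value below measures the spread between pools and not between mice.

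Type I interferons signal through the receptor chains IFNAR1 and IFNAR2 and the kinases JAK1 and TYK2 to a complex with STAT2 and IRF9 that binds interferon-stimulated response elements in promoters. The genes it switches on encode antiviral effectors, sensors of foreign nucleic acid, and regulators that amplify or end the signal. In brains with amyloid deposits interferon-responsive microglia are well known, and T cells in tissues can carry the same genes.

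The kept cells numbered 829, 3533 and 2355 in WT-1, WT-2 and PS19, and 2547, 2216 and 5898 in 5XFAD-1, 5XFAD-2 and PS-5X, with a median of 5404 to 6817 unique molecular identifiers (UMIs, counted RNA molecules) per cell. Cells were clustered without the members and the other listed interferon genes. Cd8b1 was found in 81.4% to 97.8% of the cells of each cluster named CD8. Cd4 was found in 69.0% to 76.9% of those named CD4 and Trdc in 69.0% of the γδ cluster. Clusters without a name held 8.73% to 20.6% of a pool's cells and stayed out of the classes taken from clusters. The lineage comparisons by marker UMIs were not limited to named clusters and could include their cells. In WT-1, 165 of the 829 kept cells, 144 of them non-naive CD8 T cells, carried a T cell receptor that was also found in another pool. Such receptors also occurred in 554 of 2547 kept cells of 5XFAD-1, 168 of 2355 of PS19 and 177 of 5898 of PS-5X. Of these, 518, 148 and 170 were non-naive CD8 T cells. They occurred in 0 cells of WT-2 and 5XFAD-2, the pools of the separate run. For non-naive CD8 T cells the summed levels, responding share, level per responding cell and clone comparison are also given without WT-1. Where cells with shared receptors were left out, this was done in WT-1 only, and those of the other pools stayed in. Among the 17378 kept cells, 150 barcode sequences occurred in 2 or more pools.

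Promoters of several members share the core of the interferon-stimulated response element, and some of the 16 with a match are shown. The windows come from RefSeq on GRCm38.p6 and read 5′ to 3′ on the strand of the gene, with matches to GAAA-NN-GAAA (N is any base), or to the reverse TTTC-NN-TTTC, in capitals. Both strands were searched from 250 bases before to 50 bases after each start, and overlapping matches run together. Ifit1 lies at chr19:34640759-34640838 (+), Ifit3 at chr19:34583355-34583434 (+), Ifit3b at chr19:34607751-34607830 (+), Isg15 at chr4:156200846-156200925 (−), Rsad2 at chr12:26456528-26456607 (−), Oas3 at chr5:120777690-120777769 (−) and Apol9a at chr15:77411092-77411171 (−).
Ifit1: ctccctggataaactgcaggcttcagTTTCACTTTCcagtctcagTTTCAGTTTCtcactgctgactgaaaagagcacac
Ifit3: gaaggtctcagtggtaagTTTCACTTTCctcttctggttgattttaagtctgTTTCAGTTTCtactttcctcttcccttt
Ifit3b: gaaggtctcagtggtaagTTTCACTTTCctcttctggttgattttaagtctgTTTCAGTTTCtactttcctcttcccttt
Isg15: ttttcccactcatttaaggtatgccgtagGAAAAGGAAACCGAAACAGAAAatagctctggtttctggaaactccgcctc
Rsad2: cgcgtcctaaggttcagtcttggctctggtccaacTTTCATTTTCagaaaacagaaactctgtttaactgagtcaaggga
Oas3: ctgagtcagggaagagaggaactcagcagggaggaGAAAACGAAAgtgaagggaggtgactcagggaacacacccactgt
Apol9a: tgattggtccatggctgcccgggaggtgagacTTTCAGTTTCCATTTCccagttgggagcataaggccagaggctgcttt

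Of the 27 members in the promoter table, 16 (59.3%) held the motif within the 300 bases, against 3.99% of 27025 genes, and 7 held it more than once. The first match lay upstream of the start in 13 of the 16. The 80 bases shown for Ifit3 and Ifit3b were identical, as were those of Apol9a and its neighbour Apol9b. Promoter bases do not show whether reads of these near copies are split between them. This was not tested, so their separate counts are uncertain. A match is a run of letters and not a measured binding site. In non-naive CD8 T cells the members with a match had a median amyloid difference (described next, log2 scale) of 0.82 and the 11 without a match 0.95, so the match did not separate members with larger differences from the rest.

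The first comparison asked how the members differ with amyloid in non-naive CD8 T cells, the antigen-experienced cells that lie outside the naive clusters and outside 1 further CD8 cluster not reported here. UMIs were summed per pool and divided by their total and scaled to CPM. The 3 amyloid-bearing pools (both 5XFAD pools and PS-5X) were compared with pools without (WT-1, WT-2 and PS19), with tau as a second term. PS19 and PS-5X had 1 pool each, so the spread used by this fit includes any departure from the sum of the amyloid and tau terms. All 33 members had a positive amyloid difference, as did 50.6% of the 10977 genes tested, with a median of 0.91 on the log2 scale against 0.00 over all genes. In 20 of the 33, every pool with amyloid lay above every pool without, as did 5.74% of all genes tested, and no member showed the opposite order (8.75% of genes did). PS-5X was the highest pool for 29 members, the exceptions being Ifi44, Parp14, Eif2ak2 and Slfn8, and WT-2 the lowest for 29, the exceptions being Isg15, Irf7, Ifi44 and Parp14. With 3 residual degrees of freedom, no member passed the edgeR quasi-likelihood test at an adjusted p of 0.05, and neither did any other gene (0% of 10977). The smallest adjusted p was 0.109, and 28 members were under an unadjusted p of 0.05, as were 1067 genes (9.72%). With the DESeq2 test 9 members passed (0.574% of genes).

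The antiviral effectors of the IFIT family bind foreign RNA and block its translation. Ifit1 measured 59.5, 28.3 and 32.6 CPM in WT-1, WT-2 and PS19, and 65.9, 63.4 and 131 CPM in 5XFAD-1, 5XFAD-2 and PS-5X. The groups did not overlap, but WT-1 sat close below the 5XFAD pools, and PS-5X stood well above the rest. The fitted amyloid difference of Ifit1 was 1.21 ± 0.29 (log2, SE; edgeR adjusted p = 0.181). For Ifit3 the levels were 104, 28.3 and 44.3 CPM without amyloid and 98.2, 102 and 205 CPM with it, in the same order of pools. Here WT-1 overlapped the 5XFAD pools, and the difference of 1.32 ± 0.41 had an edgeR adjusted p of 0.306. Its near copy Ifit3b (1.40 ± 0.27) and Ifit2 (0.95 ± 0.21) did not overlap between the groups.

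ISG15 is a ubiquitin-like protein that is attached to other proteins after interferon, and USP18 removes it and also damps the receptor. Isg15 measured 150, 106 and 96.2 CPM in WT-1, WT-2 and PS19, against 185, 203 and 302 CPM in 5XFAD-1, 5XFAD-2 and PS-5X. All pools with amyloid were higher, PS-5X most of all. The Isg15 difference was 1.01 ± 0.20 (edgeR adjusted p = 0.137, or 0.0479 with the sequencing run as a block). Usp18 measured 43.0, 17.1 and 25.9 CPM without amyloid and 53.2, 44.8 and 84.7 CPM with it. Its groups met at WT-1 and 5XFAD-2 without crossing, and the difference was 1.24 ± 0.28 (edgeR adjusted p = 0.159, or 0.0375 with the block).

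Rsad2 encodes viperin, which makes a nucleotide that ends viral RNA chains, and Cmpk2 beside it encodes a nucleotide kinase. Rsad2 measured 21.5, 11.2 and 11.6 CPM in WT-1, WT-2 and PS19 and 26.3, 33.5 and 71.9 CPM in 5XFAD-1, 5XFAD-2 and PS-5X. Every pool with amyloid was above every pool without, and the difference was 1.66 ± 0.32 (edgeR adjusted p = 0.137, or 0.0474 with the block). Cmpk2 ran from 10.9 to 17.7 CPM without amyloid and from 18.8 to 36.5 CPM with it. The oligoadenylate synthetase family senses double-stranded RNA, and OAS3 makes the messenger that activates RNase L. Oasl2 measured 11.8, 3.16 and 7.50 CPM in WT-1, WT-2 and PS19 and 16.1, 14.8 and 42.6 CPM in 5XFAD-1, 5XFAD-2 and PS-5X, again without overlap. The Oasl2 difference of 1.95 ± 0.35 was among the 5 largest of the members (edgeR adjusted p = 0.137, or 0.0264 with the block). Oas3 and Oasl1 overlapped between the groups at WT-1, with differences of 0.75 ± 0.19 and 1.18 ± 0.40.

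The other members among the 5 largest differences were Apol9a, Ifi44, Rsad2 and Apol9b. Apol9a, an apolipoprotein L gene, was sparse, with 1.69, 0.79 and 2.81 CPM (4, 6 and 15 UMIs) in WT-1, WT-2 and PS19 and 5.07, 4.66 and 11.9 CPM (49, 28 and 224 UMIs) in 5XFAD-1, 5XFAD-2 and PS-5X. Despite the low counts the groups did not overlap, and Apol9a shared the smallest edgeR adjusted p, 0.109, with Dhx58 (both 0.0177 with the block), at a difference of 2.19 ± 0.29. Apol9b ran from 3.95 to 10.5 CPM without amyloid and from 15.6 to 25.1 CPM with it. Ifi44 was also sparse, with 4.64, 1.32 and 1.13 CPM in WT-1, WT-2 and PS19 and 7.97, 5.83 and 5.17 CPM in 5XFAD-1, 5XFAD-2 and PS-5X. Unlike most members, Ifi44 was highest in 5XFAD-1 and not in PS-5X.

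Several abundant effectors followed the same order of pools. ISG20 is an exonuclease that degrades RNA. Isg20 measured 98.7, 38.8 and 54.6 CPM in WT-1, WT-2 and PS19 and 145, 123 and 206 CPM in 5XFAD-1, 5XFAD-2 and PS-5X. No pool crossed, and the difference was 1.42 ± 0.29 (edgeR adjusted p = 0.137, or 0.0187 with the block). Ifi27l2a, a small interferon-induced gene, measured 467, 307 and 398 CPM without amyloid and 706, 476 and 1013 CPM with it. WT-1 and 5XFAD-2 were nearly level at the border of the groups, and the difference was 0.91 ± 0.21 (edgeR adjusted p = 0.163, or 0.0240 with the block). BST2, or tetherin, holds budding virus at the cell surface. Bst2 measured 153, 133 and 145 CPM without amyloid and 197, 194 and 277 CPM with it. Its pools without amyloid lay close together and well below the rest, and the difference was 0.67 ± 0.11 (edgeR adjusted p = 0.137, or 0.0288 with the block).

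Xaf1, which promotes cell death by binding the inhibitor XIAP, measured 54.4, 39.5 and 47.1 CPM in WT-1, WT-2 and PS19 and 64.2, 62.1 and 94.5 CPM in 5XFAD-1, 5XFAD-2 and PS-5X. The groups did not overlap, and the difference was 0.71 ± 0.14 (edgeR adjusted p = 0.137, or 0.0453 with the block). Rtp4, which encodes an antiviral zinc finger protein, ran from 45.8 to 65.0 CPM without amyloid and from 75.3 to 146 CPM with it, a difference of 0.94 ± 0.19. The ubiquitin ligase gene Trim30a (0.39 ± 0.10) kept the groups apart by a narrow margin, and Parp14 (0.23 ± 0.12), which modifies proteins with ADP-ribose, did not.

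**Figure D1:**
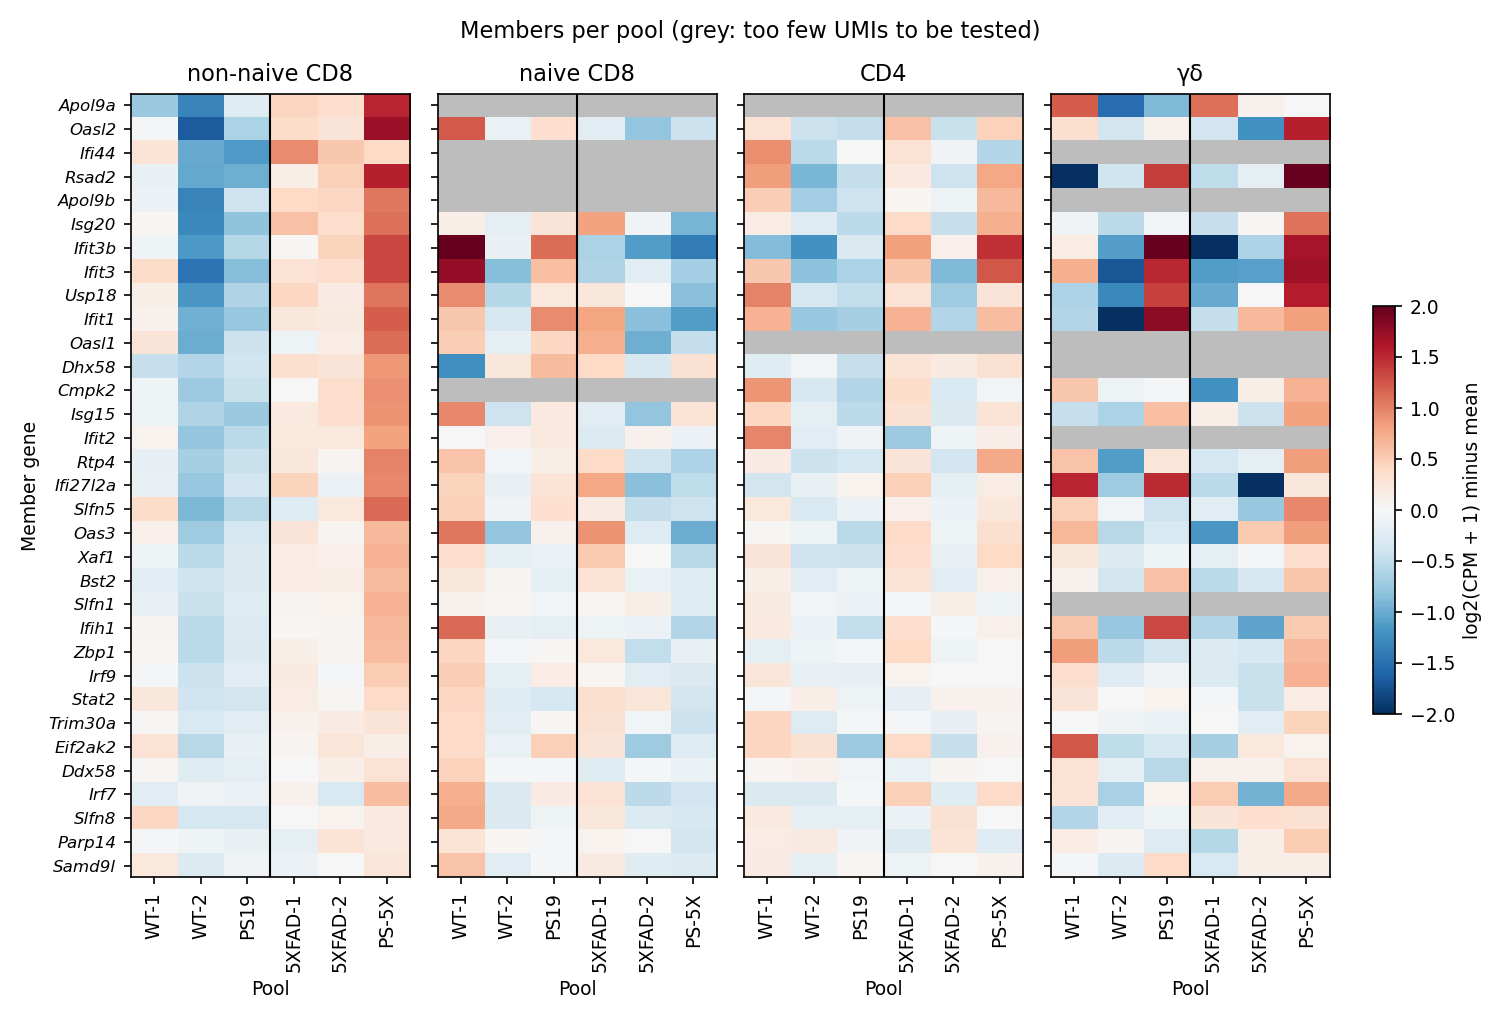
Each row is a member, each column a pool (without amyloid left of the line, with amyloid right), and each panel a T cell class; colour gives log2(CPM + 1) minus the row mean, and grey marks members with too few UMIs to be tested. In the non-naive CD8 panel PS-5X is the highest pool for 29 of the 33 members and WT-2 the lowest for 29.

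Of 5 further sensors of nucleic acid, 4 had differences below the member median of 0.91 and Dhx58 was above it. Ifih1 encodes MDA5, a sensor of long double-stranded RNA, and measured 45.6, 30.3 and 36.0 CPM in WT-1, WT-2 and PS19 and 45.2, 46.0 and 69.7 CPM in 5XFAD-1, 5XFAD-2 and PS-5X. WT-1 was level with both 5XFAD pools, so the groups overlapped, and the difference was 0.60 ± 0.16 (edgeR adjusted p = 0.230). Zbp1, whose product detects left-handed nucleic acid and can trigger necroptosis, measured 97.4, 64.9 and 77.6 CPM without amyloid and 102, 98.2 and 146 CPM with it. WT-1 lay just under 5XFAD-2, and the difference was 0.59 ± 0.15 (edgeR adjusted p = 0.217). Dhx58, which encodes the RIG-I relative LGP2, measured 13.5, 12.4 and 14.3 CPM without amyloid and 23.9, 23.0 and 35.7 CPM with it, the clearest separation of the sensors at 1.09 ± 0.14. Ddx58 (RIG-I itself, 0.33 ± 0.10) and Eif2ak2 (the kinase PKR, 0.36 ± 0.18) overlapped between the groups.

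Irf7, Irf9 and Stat2 encode transcription factors of the response, and each had a difference below the member median, whereas that of the feedback regulator gene Usp18 was above it. Irf7, the factor that amplifies interferon production, measured 149, 167 and 161 CPM in WT-1, WT-2 and PS19 and 186, 141 and 267 CPM in 5XFAD-1, 5XFAD-2 and PS-5X. 5XFAD-2 was the lowest of the 6 pools, and the difference was 0.32 ± 0.16 (edgeR adjusted p = 0.565). Irf9, the DNA-binding part of the STAT complex, measured 56.1, 42.1 and 48.2 CPM without amyloid and 64.7, 55.8 and 81.3 CPM with it. WT-1 and 5XFAD-2 were nearly equal and the difference was 0.53 ± 0.13 (edgeR adjusted p = 0.196). Stat2, its partner, measured 37.5, 24.0 and 24.8 CPM without amyloid and 35.5, 32.6 and 42.0 CPM with it. WT-1 was above both 5XFAD pools, and the difference was 0.46 ± 0.17 (edgeR adjusted p = 0.397).

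Samd9l, an inhibitor of translation and of growth, measured 109, 77.3 and 89.8 CPM in WT-1, WT-2 and PS19 and 86.4, 94.4 and 111 CPM in 5XFAD-1, 5XFAD-2 and PS-5X. Its groups were mixed throughout, and at 0.14 ± 0.13 it had the smallest difference of the members (edgeR adjusted p = 0.781). The Schlafen genes, which restrain T cell growth or virus replication, were uneven. Slfn1 measured 89.9, 73.6 and 84.8 CPM without amyloid and 104, 105 and 163 CPM with it. These did not overlap and differed by 0.62 ± 0.13 (edgeR adjusted p = 0.137, or 0.0564 with the block). Slfn5 (0.88 ± 0.35) and Slfn8 (0.24 ± 0.17) did overlap, and Slfn8 was highest in WT-1.

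The call on these members turned on the replicate pools and the run. With the sequencing run as a block, 14 of the 33 members passed in non-naive CD8 T cells (0.665% of genes did). Members described above that did not pass with the block included Slfn1 (edgeR adjusted p = 0.0564), Ifi44 (0.0582), Ifit1 (0.0677), Irf9 (0.0705) and Zbp1 (0.0731). Ifit3 (edgeR adjusted p = 0.0906), Ifih1 (0.104), Stat2 (0.234), Irf7 (0.467) and Samd9l (0.686) were further from the threshold. Without WT-1, 28 members passed (1.30% of genes), and with the block and without WT-1, an alternative chosen after the data were seen, 30 did (3.14% of genes). Leaving out only the WT-1 cells whose receptor occurred in another pool gave 16 (0.63% of genes). Without PS-5X, which leaves the contrast to the WT and 5XFAD pools, the median was 0.62 and no member passed, although all 33 remained positive. Without PS19 the tau term fits PS-5X alone, so the contrast is again that of the WT and 5XFAD pools. The median of 0.62 found there is therefore not a separate check. The non-naive CD8 class also held a cluster of 833 cells marked by S1pr5 and Cx3cr1, a gene of both effector T cells and microglia, to which WT-2 gave 408 of its 1421 non-naive CD8 cells and the other pools 35 to 126. Without this cluster, an alternative also chosen after the data were seen, the median was 0.83, all 33 members were positive and none passed.

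**Figure D2:**
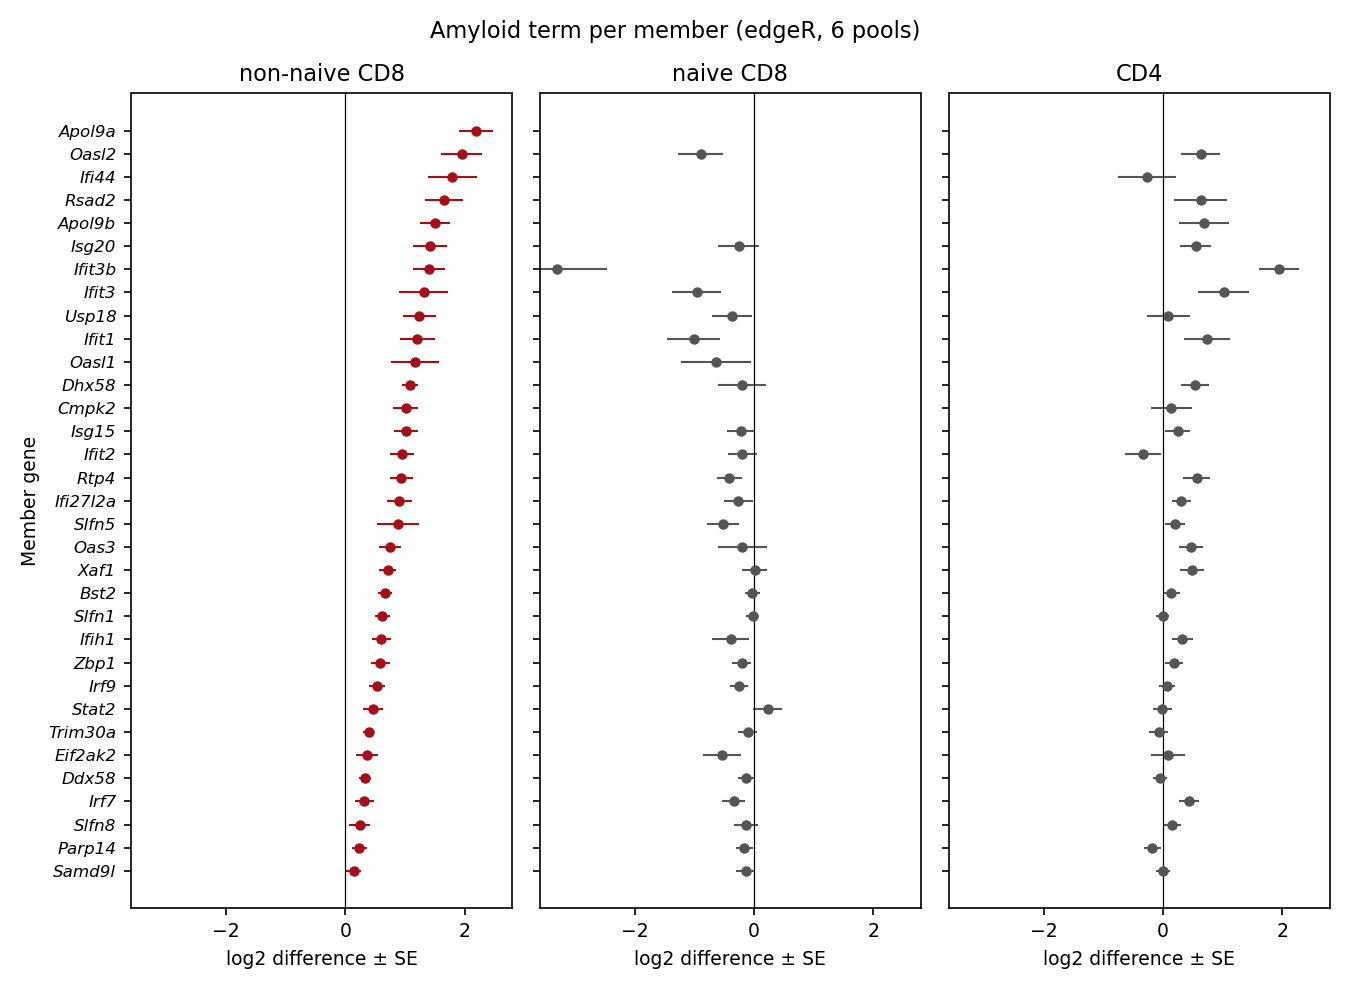
Fitted amyloid difference of each member (log2, points with SE bars) by T cell class, from edgeR with tau as a second term. All members sit above 0 in non-naive CD8 T cells, with a median of 0.91, whereas naive CD8 T cells lie around -0.24 and CD4 T cells around 0.20.

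Markers of other cell types were compared in the same sums. In non-naive CD8 T cells the 12 microglial genes summed to 251 to 264 CPM with amyloid and 253 to 319 CPM without, with Ctss, Cst3 and Cx3cr1 among the genes that carried it. Their defining genes were near 0, with Tmem119 at 0 to 0.05 CPM, P2ry12 at 0 to 0.37 CPM and Trem2 at 0 to 0.37 CPM over the 6 pools. The 8 monocyte, macrophage and dendritic genes summed to 71.8 to 112 CPM with amyloid and 91.5 to 127 CPM without. Lyz2 had 2 UMIs in all, and Ms4a7, Mrc1, Flt3 and Cd209a had 0. B cell genes (71.3 to 87.1 against 59.6 to 82.7 CPM) overlapped between the groups. So did the sum of the 7 NK genes (219 to 236 against 218 to 237 CPM), but Eomes, which CD8 T cells also express, made up 206 to 231 CPM of it.

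Other NK genes were sparse and lower with amyloid. Klrb1c (0.75 to 4.00 against 5.25 to 12.1 CPM), Tyrobp (0.50 to 0.91 against 1.88 to 6.75 CPM) and Klra7 (0.41 to 0.69 against 1.88 to 6.75 CPM) were each lower in every pool with amyloid than in every pool without. Of the 4 NK genes tested 1 was positive, none passed (edgeR) and the median was -2.12 on the log2 scale. The state of the cells differed too: within the non-naive class the 9 naive genes summed to 900.0 to 1263 CPM with amyloid and 1282 to 1797 CPM without. Klf2, a transcription factor of resting and recirculating T cells, was lower in every pool with amyloid (510.2 to 700.1 against 774 to 1196 CPM). Lef1, S1pr1 and Cx3cr1 showed the same order, Cx3cr1 at 11.7 to 17.2 against 31.6 to 89.4 CPM. Of the 10 non-naive genes, Pdcd1, Rgs1 and Id2 were higher and S100a4 lower in every pool with amyloid, while their sum overlapped (14477 to 15927 against 15050 to 18534 CPM). The part of these shifts in the differences of the interferon genes was not tested.

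The interferons themselves were almost absent from these cells. Across the 17378 kept cells and 113186985 UMIs, 12 UMIs fell on 4 of the 20 type I and type III interferon genes (Ifnz, Ifnk, Ifne and Ifnl2), and Ifnb1 and all listed Ifna genes had 0. Of the 26 receptor and signalling genes listed, 21 were tested in non-naive CD8 T cells and none passed (edgeR, 0% of all genes), with a median amyloid difference of 0.01 and 12 positive. The receptor chains Ifnar1 (-0.09 ± 0.09) and Ifnar2 (0.10 ± 0.09) and the kinase gene Jak1 (-0.13 ± 0.10) lay near 0. The kinase gene Tyk2 was somewhat lower with amyloid (-0.25 ± 0.09). Socs1, a feedback inhibitor that is itself induced by interferon, had a larger difference (0.45 ± 0.10). Of 30 further interferon-stimulated genes outside the member list, 28 were tested, 25 were positive and none passed, with a median of 0.37. These included Ifitm3 (2.91 ± 0.45), which blocks virus entry, Oas2 (1.72 ± 0.52), Ly6a (1.37 ± 0.28) and Oas1a (0.79 ± 0.15).

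The same comparison gave smaller or opposite values in the other classes. In all CD8 T cells, 33 of 33 members were positive (49.8% of genes) with a median of 0.77, and 17 did not overlap between the groups (7.85% of 11671 genes). This class mixes naive and other clusters in unequal shares: non-naive clusters made up 53.0% to 68.2% of the CD8 T cells of pools without amyloid and 67.7% to 83.4% with it. None passed edgeR (0% of genes; 28 members and 10.4% of genes had an unadjusted p under 0.05), and with the run as a block 19 passed (1.85% of genes). In naive CD8 T cells 28 members could be tested, 2 were positive against 50.6% of genes (Stat2 and Xaf1, 0.22 ± 0.24 and 0.01 ± 0.21), the median was -0.24 and none passed (edgeR, 0.0752% of 9308 genes did; 4 members and 4.50% of genes had an unadjusted p under 0.05). In this class WT-1 was the highest pool for 18 members and PS-5X the lowest for 16. Ifit3 in naive CD8 T cells measured 58.7, 8.82 and 25.8 CPM in WT-1, WT-2 and PS19 and 10.7, 14.0 and 9.98 CPM in 5XFAD-1, 5XFAD-2 and PS-5X. The high value came from WT-1, with 36 UMIs in 76 cells, and 1 WT-1 cell held 23.9% of that pool's UMIs of the 11 genes used to call responding cells. Ifit3b was the member with the largest naive difference (-3.31 ± 0.84, 1 UMI in each pool with amyloid, 7 to 21 without; edgeR adjusted p = 0.326, or 0.00331 with the block). With Oasl2 it was one of the 2 members in which every pool with amyloid lay below every pool without (5.12% of genes did); none showed the opposite order (3.60%).

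In CD4 T cells 31 members were tested, 23 were positive (49.7% of genes), the median was 0.20 and none passed (edgeR, 0% of 9978 genes; 7 members and 6.29% of genes had an unadjusted p under 0.05). Ifit3b and Dhx58 did not overlap between the groups (2 of 31, against 6.37% of genes). Ifit3b measured 2.82, 2.02 and 4.74 CPM in WT-1, WT-2 and PS19 and 11.3, 6.52 and 18.2 CPM in 5XFAD-1, 5XFAD-2 and PS-5X, with 3 to 16 and 14 to 103 UMIs. All pools with amyloid were higher, by 1.95 ± 0.33 in the fit (edgeR adjusted p = 0.0961, or 0.0295 with the block). The next largest differences in CD4 T cells were Ifit3 at 1.02 ± 0.43 and Ifit1 at 0.74 ± 0.38. WT-1 was the highest CD4 pool for 12 members, followed by PS-5X with 8 and 5XFAD-1 with 7. A single WT-1 CD4 T cell held 29.7% of that pool's UMIs of the 11 genes used to call responding cells (153 of 515) and 12.7% of its member UMIs. Restricting the test to CD4 T cells outside the naive cluster, a comparison added after the data were seen, gave 25 of 31 positive, the same median of 0.20 and none called (edgeR, 0.0106% of genes).

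In γδ T cells, which gave 38 to 285 cells per pool, 27 members were tested, 21 were positive (49.8% of genes), the median was 0.21 and none passed (edgeR, 0.0344% of 8714 genes; 3 members and 5.11% of genes had an unadjusted p under 0.05). Slfn8 alone did not overlap between the groups (3.68% of genes were higher in every pool with amyloid). Ifi27l2a went the other way, with 261, 54.8 and 255 CPM in WT-1, WT-2 and PS19 and 62.2, 21.6 and 106 CPM in 5XFAD-1, 5XFAD-2 and PS-5X. WT-2 lay below 5XFAD-1 and PS-5X, so the groups overlapped, and the difference was -1.39 ± 0.41 (edgeR adjusted p = 0.536, or 0.00248 with the block). In the PS19 pool a single γδ T cell held 65.8% of the UMIs of the 11 calling genes, 150 of 228.

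For tau in CD8 T cells, 31 of 33 members were positive (51.2% of genes) with a median of 0.29 and none passed (edgeR, 0% of genes; 7 members and 6.69% of genes had an unadjusted p under 0.05). That sign came from PS-5X: without it the median was -0.08 and 9 members were positive. The largest tau difference was that of Apol9a (1.23 ± 0.31, edgeR adjusted p = 0.570), and Ifi44 had the lowest (-0.51 ± 0.45). In CD4 T cells, a comparison added after the data were seen, 18 of 31 were positive with a median of 0.06 and none passed (edgeR, 0.0200% of genes).

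Whether the amyloid difference itself differs between CD8 and CD4 T cells was tested with an interaction term and the pool as a block. Of 33 members, 31 had the larger difference in CD8 T cells (48.9% of genes), with a median of 0.49, and 5 passed (edgeR; 0.136% of 11057 genes passed in that direction, 0.371% in either). Isg15 had the smallest adjusted p. It measured 111, 71.8 and 65.3 CPM in CD8 T cells of WT-1, WT-2 and PS19 and 150, 136 and 231 CPM in 5XFAD-1, 5XFAD-2 and PS-5X. In CD4 T cells Isg15 measured 140, 92.3 and 72.0 CPM and 129, 85.7 and 126 CPM in the same orders. The groups were apart in CD8 T cells and mixed in CD4 T cells, and the difference of the differences was 0.86 ± 0.11 (edgeR adjusted p = 0.00175). Isg20 followed with 1.16 ± 0.17 (edgeR adjusted p = 0.00349).

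Ifit2 (1.13 ± 0.21, edgeR adjusted p = 0.0200), Usp18 (1.00 ± 0.20, edgeR adjusted p = 0.0304) and Ifi44 (2.29 ± 0.49, edgeR adjusted p = 0.0457) also passed. Ifit2 in CD4 T cells ran from 20.4 to 47.9 CPM without amyloid and from 13.9 to 26.2 CPM with it, the highest being WT-1. These 3 calls were lost in some alternatives, whereas Isg15 and Isg20 passed in all 14. Without WT-1, Ifit2, Usp18 and Ifi44 were lost and 3 members passed (0.268% of genes), and with the DESeq2 test these were lost too and Isg15 and Isg20 remained (0.0271% of genes). The shares of naive and non-naive clusters differed between pools in both lineages, and non-naive clusters made up 47.8% to 59.2% of CD4 T cells without amyloid and 59.4% to 80.5% with it. With the test restricted to non-naive clusters of both lineages, an alternative chosen after the data were seen, 30 of 33 members had the larger difference in CD8 T cells, with a median of 0.51. Isg15 (0.95 ± 0.13, edgeR adjusted p = 0.00438) and Isg20 (1.20 ± 0.18, edgeR adjusted p = 0.00918) passed there (0.201% of genes), and the other 3 did not, with Usp18 at an edgeR adjusted p of 0.372.

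A higher level in a class can come from more cells that respond or from more RNA per responding cell. To separate these, each cell was thinned to 2000 UMIs and called responding when it held UMIs of at least 3 of 11 members (Ifit1, Ifit3, Ifit3b, Isg15, Rsad2, Usp18, Cmpk2, Oasl1, Irf7, Rtp4 and Zbp1). The level per cell was then read from the other 22 members. A responding cell is thus a range of a score and not a cell type: of the non-naive CD8 T cells of PS-5X, 397 of 2940 held exactly 2 calling genes and 192 exactly 3.

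In non-naive CD8 T cells the responding share was 9.24% for WT-1 (29 of 314 cells; 95% exact interval 6.27 to 13.0), 4.15% for WT-2 (58 of 1398; 3.17 to 5.33) and 6.37% for PS19 (50 of 785; 4.76 to 8.31). With amyloid it was 11.8% in 5XFAD-1 (167 of 1415; 10.2 to 13.6), 9.42% in 5XFAD-2 (84 of 892; 7.58 to 11.5) and 21.9% in PS-5X (643 of 2940; 20.4 to 23.4). Intervals are Clopper-Pearson intervals and cover counting error only. The groups did not overlap, but WT-1 and 5XFAD-2 differed by far less than their intervals, and PS-5X stood clear of all other pools. The means were 14.4% ± 6.61 (SD, n = 3 pools) and 6.58% ± 2.55 (SD, n = 3 pools), a difference of 7.78 percentage points with a two-sided exact permutation p of 0.1. This is the smallest p that 3 pools against 3 can give (0.4 after adjustment over the 4 classes tested). Within the common run the difference was 9.03 points and within the separate run 5.27 points. Without thinning, the same shares ran from 12.3% in WT-2 to 45.0% in PS-5X, at median depths of 4602 to 7015 UMIs. With the thinned WT-1 cells that shared a receptor left out, the difference was 7.74 points. Without PS-5X it fell to 4.02 points and without WT-1 it was 9.10 points (exact permutation p = 0.2 each), and leaving out each other pool gave 6.56 to 10.3 points.

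**Figure D3:**
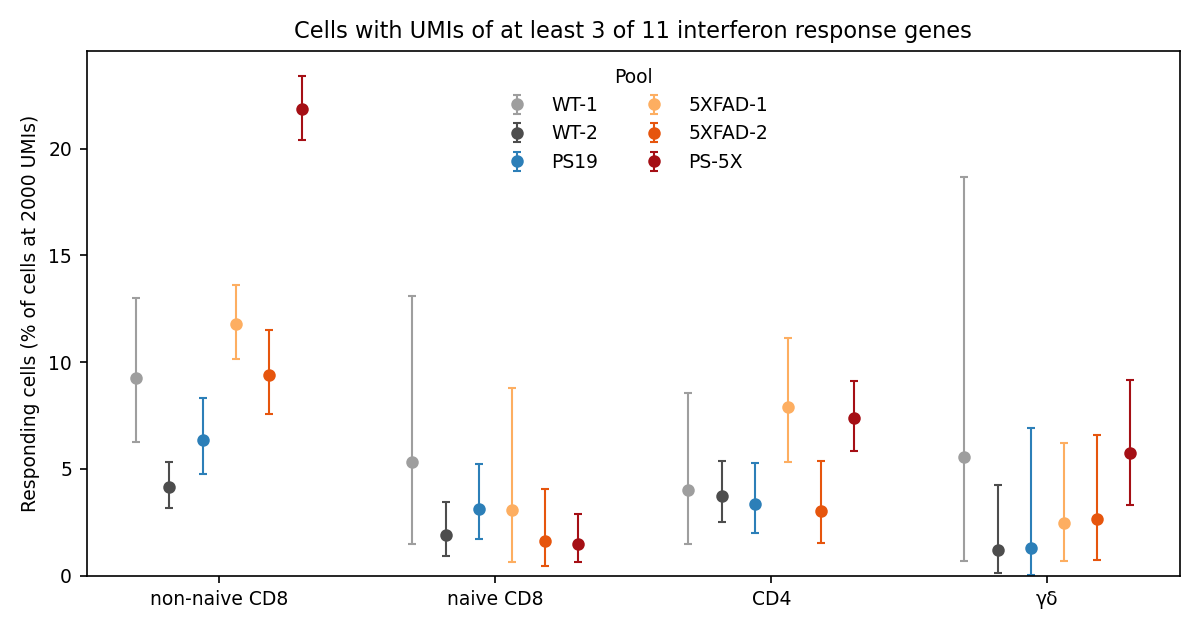
Share of responding cells (percent, 2000 UMIs per cell) by pool and T cell class, with 95% exact binomial intervals for counting error. In non-naive CD8 T cells the share runs from 4.15% in WT-2 to 21.9% in PS-5X, and it is lower in naive CD8, CD4 and γδ T cells of each pool.

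The share was higher in non-naive CD8 T cells than in naive CD8 T cells, in all CD4 T cells and in γδ T cells in 6 of 6 pools each. Against non-naive CD4 T cells it was higher in 5 of 6, WT-2 being lower by 1.34 points (4.15% against 5.49%). The lead over all CD4 T cells was smallest in WT-2, at 0.40 points. The non-naive CD8 class holds a cluster led by interferon genes, described below, of whose thinned cells 98.3% responded. In WT-2 all 16 thinned cells of this cluster responded and made up 16 of the 58 responding cells. The other 42 lay in clusters of which 1.75% to 4.81% responded. Without this cluster the share of WT-2 fell below that of all its CD4 T cells (3.75%). The lead over CD4 T cells in that pool thus rests on this cluster. The order of the classes without it was not tested in the other pools. Naive CD8 T cells, taken as the background of the call, had 1.48% (PS-5X) to 5.33% (WT-1, 4 of 75 cells). Their mean was lower with amyloid by 1.39 points (exact permutation p = 0.2), in contrast to the non-naive cells. CD4 T cells had 7.88% in 5XFAD-1 and 7.36% in PS-5X, but 3.04% in 5XFAD-2 and 3.38% to 4.03% in the pools without amyloid. That difference of 2.38 points had an exact permutation p of 0.4 (0.5 adjusted over 4) and was -0.710 points within the separate run. It ranged from 1.48 points without 5XFAD-1 to 3.90 without 5XFAD-2. In γδ T cells, 1 to 16 responding cells per pool gave 1.19% to 5.76% and a difference of 0.943 points (exact permutation p = 0.5), which was -0.126 without PS-5X. In all CD8 T cells the shares were 7.14%, 3.32% and 4.90% without amyloid and 10.3%, 6.81% and 16.8% with it, a difference of 6.18 points (exact permutation p = 0.2; 0.4 adjusted over 4) that was 3.41 without PS-5X.

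The level within responding cells was compared next. Responding non-naive CD8 T cells held 13.2 ± 0.24 UMIs of the 22 readout members per 2000 UMIs with amyloid and 12.1 ± 1.28 without (SD, n = 3 pools each). The difference of 1.09 UMIs lay within the spread of the pools without amyloid (exact permutation p = 0.4), but it depended on the setting. It was 0.504 without WT-2, 1.77 without WT-1 (exact permutation p = 0.1) and 0.577 without the WT-1 cells that shared a receptor. With at least 2 calling genes it was 1.94, and with cells thinned to 3000 UMIs it was 3.01 per 3000 UMIs (exact permutation p = 0.1 each). Cells not called responding held 2.90 ± 0.57 readout UMIs with amyloid and 2.15 ± 0.25 without, and these pools did not overlap (exact permutation p = 0.1). Over all non-naive CD8 T cells the readout level was 4.35 ± 1.14 against 2.83 ± 0.56 UMIs. For 3 matched pairs of pools the difference in this level was split into a part from the share and a part from the levels. The share accounted for 44.1% of it between 5XFAD-1 and WT-1, 44.5% between 5XFAD-2 and WT-2 and 54.0% between PS-5X and PS19, of which only the first pair includes WT-1. Of the difference of 2.78 UMIs between PS-5X and PS19, 1.5 came from the share, 0.18 from the level of responding cells and 1.10 from the level of the other cells. Cells just under the threshold are among those other cells, so this split depends on where the threshold stands.

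Most readout members marked the responding cells although they had no part in the call. Of the 22, 19 were found in a larger share of responding than of other non-naive CD8 T cells with no overlap between the 6 pools' values; the exceptions were Ifi44, Apol9a and Apol9b, each higher in 5 of 6 pools. Ifi27l2a was found in 65.5% to 85.8% of responding and 26.2% to 54.2% of other cells, and Bst2 in 37.9% to 66.0% and 13.0% to 23.0%. Isg20 (32% to 57.1% against 4.85% to 19.8%) and Oasl2 (3.45% to 20.8% against 0.30% to 1.65%) were further apart in proportion. Samd9l (22.0% to 41.4% against 12.8% to 17.3%) and Irf9 (20% to 27.6% against 7.61% to 11.9%) were among the closest of the 19. Apol9a and Apol9b, which had some of the largest amyloid differences, thus overlapped between responding and other cells. Apol9b was found in 1.72% to 10.3% of responding and 1.19% to 3.70% of other cells. Its mean UMIs per cell were 2.04 times as high in responding cells, the lowest ratio of the 22. The ratio of Apol9a was 4.84, above those of Samd9l (2.62) and Irf9 (2.79). Apol9b was also the leading gene of a cluster of 1629 CD8 T cells that had been formed without it.

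**Figure D4:**
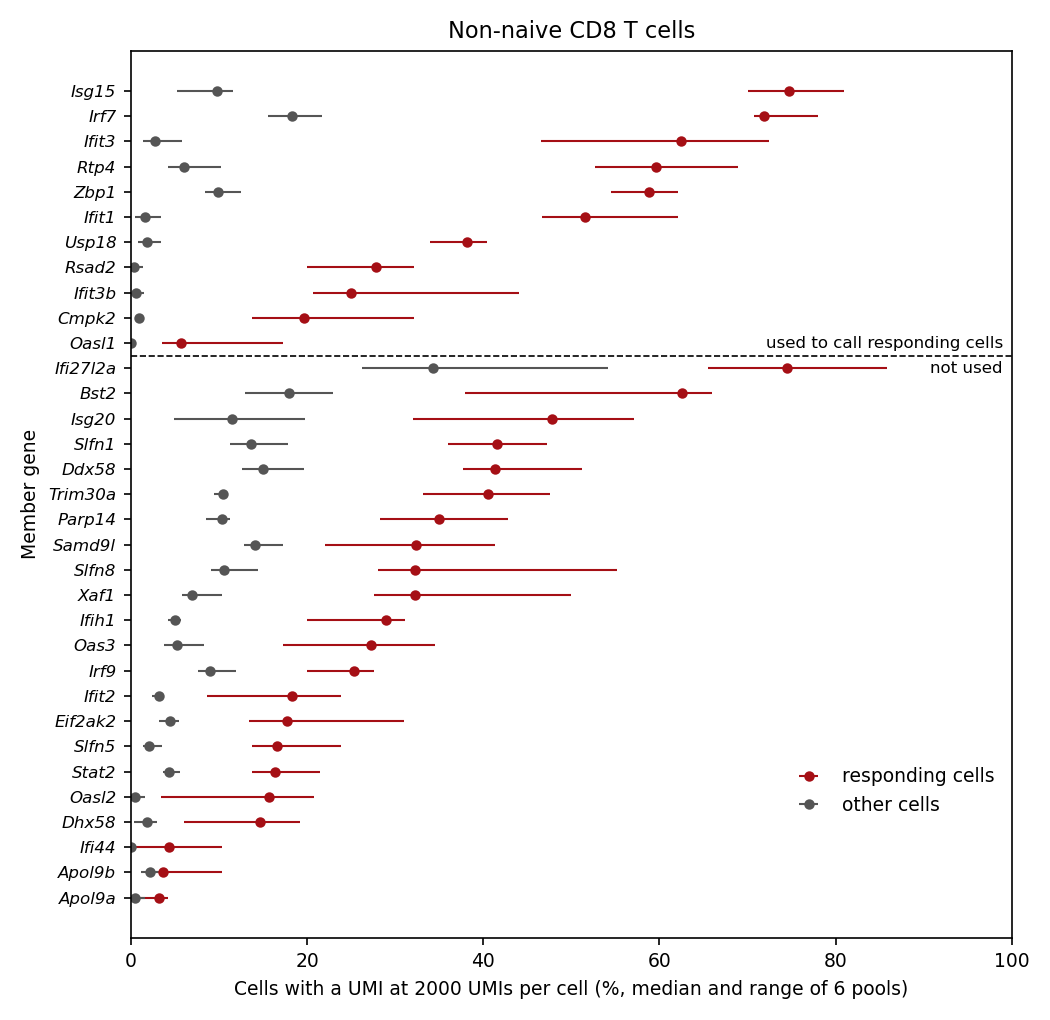
Share of non-naive CD8 T cells with a UMI of each member (percent, 2000 UMIs per cell) among responding and other cells, as the range and median over the 6 pools. For 19 of the 22 readout members the 2 ranges are apart, with Ifi44, Apol9a and Apol9b the exceptions.

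Responding cells were spread over clusters. The listed interferon genes were left out of the clustering, but other interferon-induced genes could stay in it. A cluster of 297 cells was led by Cxcl10, Rsad2, Ifit3, Ifit3b and Ifit1, and 98.3% of its thinned cells were responding. It held 24.0% (PS19) to 39.3% (5XFAD-2) of a pool's responding non-naive CD8 T cells, so that most lay elsewhere. In the largest CD8 cluster, led by Ly6c1, Ly6c2 and Xcl1, 7%, 2.97% and 6.05% responded in WT-1, WT-2 and PS19 and 13.5%, 10.3% and 23.7% in 5XFAD-1, 5XFAD-2 and PS-5X. The order of the groups was the same within this cluster as in the whole class. In the cluster with Lag3 and Pdcd1 the shares were 12.9%, 4.37% and 4.76% without amyloid and 7.94%, 3.47% and 16.3% with it, which overlapped. In the cluster marked by S1pr5 and Cx3cr1 the share was low throughout, 1.75% to 5.71%.

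Clone size was compared next, using the T cell receptor, which is read from a separate library. A clone is the set of cells of a pool with the same receptor, and clones of 2 or more cells were called expanded. Responding cells of non-naive CD8 T cells made up 8.96% of singletons and 9.90% of expanded cells in WT-1, 3.08% and 4.76% in WT-2, and 6.79% and 5.42% in PS19. They made up 11.7% and 11% in 5XFAD-1, 8.72% and 8.91% in 5XFAD-2, and 21.2% and 21.9% in PS-5X. Expanded cells were higher in 4 pools and lower in 5XFAD-1 and PS19, and the mean difference was 0.235 ± 1.13 percentage points (SD, n = 6 pools; two-sided exact sign-flip permutation p = 0.625). Without WT-1 the mean was 0.0928 points (sign-flip permutation p = 0.875). Most of the expanded cells of WT-1 carried a receptor found in another pool: without such cells 17 of 102 expanded and 142 of 201 singleton cells were left there, and the mean difference was -1.68 points. The sign of this mean changed in several alternatives, so no direction is given for it. Why pools share receptors was not tested.

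Responding cells came from many clones. In PS-5X, the 589 responding cells with a receptor belonged to 344 clones, of which 217 were singletons, and the most from a single clone was 90 cells (15.3%). In the other pools a single clone gave at most 4.26% (PS19) to 15.4% (WT-2). The 35 clones with 20 or more thinned non-naive CD8 T cells ranged from 0% to 47.6% responding, with a median of 10.0%, and 5 had none. Within PS-5X the largest clone had 90 of 345 cells responding (26.1%; 95% exact interval 21.5 to 31.1) and the next 10 of 102 (9.80%; 4.80 to 17.3). These clones of the same pool differed beyond counting error, although cells of a clone are not replicates.

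**Figure D5:**
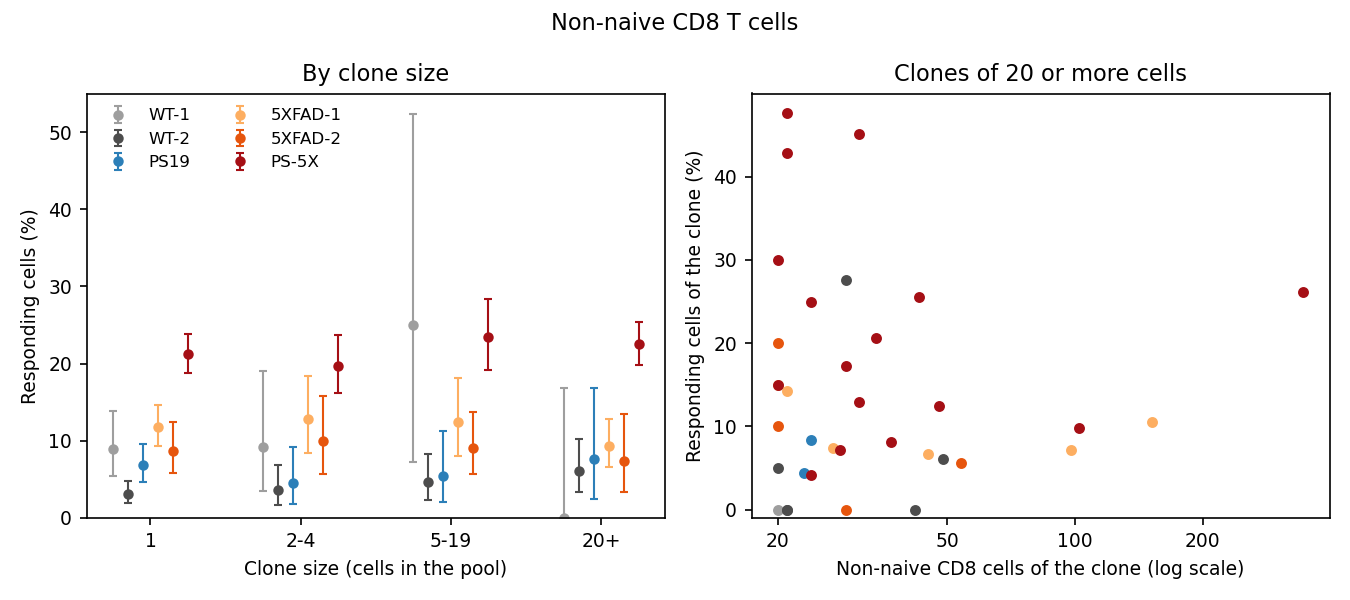
Share of responding non-naive CD8 T cells (percent) by clone size in each pool, with 95% exact binomial intervals in the first panel. The second panel plots each clone of 20 or more cells by its number of cells (log axis) and its responding share, with no interval. PS-5X lies highest among singletons at 21.2%, and its largest clone, with 345 cells, sits at 26.1%.

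Across the summed UMIs of expanded and singleton non-naive CD8 T cells, with the pool as a block, 4 of 33 members passed (edgeR; 6.28% of 10228 genes did), 1 higher (3.11% of genes) and 3 lower (3.17%) in expanded cells. Ifi27l2a measured 682, 333, 448, 758, 594 and 1080 CPM in expanded cells of WT-1, WT-2, PS19, 5XFAD-1, 5XFAD-2 and PS-5X and 383, 264, 352, 637, 340 and 906 CPM in singletons. It was higher in expanded cells of 6 of 6 pools, by 0.41 ± 0.06 (edgeR adjusted p = 0.000508). Slfn5 measured 18.3, 10.2, 15.9, 17.6, 25.6 and 48.8 CPM in expanded cells and 42.2, 17.2, 20.6, 23.5, 36.6 and 68.7 CPM in singletons. It was lower in all 6, by -0.57 ± 0.09 (edgeR adjusted p = 0.000464). Ifit2 (-0.37 ± 0.09, edgeR adjusted p = 0.0199) and Oasl2 (-0.47 ± 0.13, edgeR adjusted p = 0.0344) also passed, and both lost the call without 5XFAD-2, without PS19 and without PS-5X. The 4 calls were kept without WT-1 and without its cells that shared a receptor, on which its expanded values largely rest. The median of the 33 was -0.03. Without the pool as a block none of the 33 passed.

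In CD4 T cells 5 of 31 members passed between expanded and singleton cells (edgeR; 11.6% of 8914 genes did), 4 higher (5.71% of genes) and 1 lower (5.88%). Isg20 measured 197, 106, 86.8, 101, 77.6 and 158 CPM in expanded cells and 56.5, 35.8, 32.7, 62.8, 32.9 and 65.9 CPM in singletons, in the order used for Ifi27l2a. It was higher in 6 of 6 pools by 1.11 ± 0.14 (edgeR adjusted p = 1.11e-06). Irf7 (0.45 ± 0.12, edgeR adjusted p = 0.0141), Slfn8 (0.54 ± 0.17, edgeR adjusted p = 0.0368) and the sparse Apol9b (1.96 ± 0.41, edgeR adjusted p = 0.00114) were also higher, and Slfn1 was lower (-0.60 ± 0.13, edgeR adjusted p = 0.00124). WT-1 gave 4 expanded CD4 cells and 3 to 6 UMIs of Irf7, Slfn1 or Isg20 there. Clone size counted every kept cell of a pool, so an expanded CD4 T cell can belong to a clone with cells of other classes. In 5XFAD-1, for example, 2 clones of 20 or more cells gave 3 thinned CD4 T cells. Cd8b1 was found in 12.2% of the CD4 cluster of 1813 cells, and any CD8 T cells among the expanded CD4 cells were not removed. Slfn8 lost the call without 5XFAD-1, PS19 or PS-5X, without the largest clone of each pool, with DESeq2 and without the pool as a block, Irf7 without either 5XFAD pool, and Apol9b without the block.

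Expanded and singleton CD4 T cells also differed in state. Non-naive clusters held 92.5% to 100% of the expanded and 42.4% to 76.7% of the singleton CD4 T cells of a pool. Within non-naive CD4 T cells, an alternative chosen after the data were seen, 3 of 30 members passed (edgeR; 3.85% of genes did). Isg20 (0.64 ± 0.13, edgeR adjusted p = 0.00276) and Apol9b (1.48 ± 0.42, edgeR adjusted p = 0.0424) were higher in expanded cells, Ifi27l2a was lower (-0.63 ± 0.11, edgeR adjusted p = 0.000566), and Irf7, Slfn8 and Slfn1 did not pass.

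To compare the lineages themselves, cells were taken by their own coreceptor UMIs and not by clusters. CD8 T cells had Cd8a or Cd8b1 and no Cd4, CD4 T cells the reverse, and γδ T cells had Trdc without Cd4, Cd8b1 or a receptor β chain. Between CD8 and CD4 T cells, 14 of 33 members passed, 12 higher in CD8 (edgeR; 28.9% of 10928 genes passed in either direction, 13.4% as higher and 15.5% as lower). Ifit3 measured 71.8, 21.5, 27.6, 76.9, 63.1 and 144 CPM in CD8 and 37.5, 6.70, 15.2, 50.3, 8.57 and 70.6 CPM in CD4 T cells of WT-1, WT-2, PS19, 5XFAD-1, 5XFAD-2 and PS-5X. It was higher in CD8 T cells of every pool, by 1.22 ± 0.18 (edgeR adjusted p = 0.000159). Usp18 (0.87 ± 0.18), Ifit3b (0.91 ± 0.20), Rtp4 (0.47 ± 0.10) and Oas3 (0.45 ± 0.11) were also higher in CD8 T cells.

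Ifi27l2a was the clearest exception. It measured 396, 264, 329, 570, 370 and 768 CPM in CD8 and 668, 707, 951, 1285, 525 and 1073 CPM in CD4 T cells in the same order, lower in CD8 T cells of all 6 pools by -0.89 ± 0.12 (edgeR adjusted p = 9.55e-05). Slfn5 was also lower in CD8 T cells (-0.48 ± 0.13, edgeR adjusted p = 0.0117). Isg15, in contrast to the IFIT genes, was level between the lineages at 0.00 ± 0.13.

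The γδ cells taken by their UMIs had lower levels of most members than CD8 T cells. Of 33, 28 were lower than in CD8 T cells and none higher (edgeR; 40.2% of 10627 genes passed, 19.8% as lower and 20.4% as higher), with a median of -1.15 against -0.03 over all genes. Slfn1 measured 24.4, 12.5, 33.2, 3.15, 13.3 and 19.1 CPM in γδ and 88.1, 81.0, 85.0, 101, 99.1 and 139 CPM in CD8 T cells of WT-1, WT-2, PS19, 5XFAD-1, 5XFAD-2 and PS-5X. The lineages did not overlap, and the difference was -2.81 ± 0.21 (edgeR adjusted p = 6.02e-09). Oas3 (-2.10 ± 0.21), Ifi27l2a (-2.65 ± 0.27), Rtp4 (-1.40 ± 0.13) and Xaf1 (-1.36 ± 0.13) were the other members with the smallest p-values. The 5 members that did not pass were Samd9l (-0.19 ± 0.10), Oasl2 (-0.49 ± 0.27), Oasl1 (-0.24 ± 0.46), Slfn5 (0.15 ± 0.20) and Apol9a (0.72 ± 0.49), of which Samd9l ran from 63.0 to 114 CPM in γδ and from 68.2 to 98.8 CPM in CD8 T cells. The γδ cluster was led by Il17a, Trdv4 and Tcrg-V6, but the γδ cells compared here were not limited to it. Trdc was also found in 23.5% of an unnamed cluster of 752 cells led by Fcer1g, Ncr1 and Klrb1c. Of 6 NK genes tested, 5 passed as higher in the γδ cells and 1 as lower, with a median of 2.89. NK-like cells among the γδ cells were not removed. The CD8 cells compared hold naive and non-naive cells together, so state and lineage cannot be told apart here.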

How the data were processed

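The deposited matrices hold UMI counts per gene and cell barcode, made by the authors with Cell Ranger 6.0.1, and the deposited receptor tables (other values: clonotypes per barcode) come with them. The submitters' processing notes name GRCm38 and mm10 without a role. Totals were 5883210 to 38616794 UMIs per pool. Kept cells had 500 or more genes and no more than 10% mitochondrial UMIs, and the highest Scrublet scores were removed as doublets at the usual rate for the number of barcodes. Cells were clustered with scanpy 1.11.5 and leidenalg 0.10.2 (1865 variable genes without the listed interferon genes or receptor genes, 30 components, 15 neighbours, resolution 1.0, seed 11). Clusters were named from marker genes.

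Sums of UMIs by pool and class were fitted with edgeR 4.0.16 (R 4.3.3; quasi-likelihood, TMM, Benjamini-Hochberg, threshold 0.05) over all genes passing its filter, after a check on simulated data. Amyloid and tau were terms over the 6 pools. Replicate numbers pair the pools because the labels give WT-2 and 5XFAD-2 a sequencing run of their own. Same-numbered pools also deviated together (Pearson r over genes 0.308 in CD8, 0.239 in non-naive CD8 and 0.135 in CD4 T cells, pseudocount 1 CPM); over the members alone r was 0.208, -0.0351 and 0.347. Shares and levels used exact two-sided permutation tests (scipy 1.17.1). Alternatives were DESeq2 1.42.0, its size factors, no filter, each pool left out, the run as a block, and other call thresholds and depths. Further ones were doublets kept, non-naive clusters only, and cells with shared receptors left out of WT-1 alone. The members and gene lists were chosen with earlier results of these data known. Every pool's values are given for a set of members fixed by name, and otherwise up to 5 members per direction that passed, by smallest p, or the largest differences where none passed. Mx1 was not analysed here, and some results are not reported here.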

Additional observations from a re-analysis of the deposited data

Results flagged for a closer look

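The amyloid difference of 5 members differed between CD8 and CD4 T cells, by the edgeR interaction term itself and always with the larger value in CD8 T cells. The difference of the log2 differences was 0.86 for Isg15, 1.16 for Isg20, 1.13 for Ifit2, 1.00 for Usp18 and 2.29 for Ifi44. Over 14 alternatives Isg15 and Isg20 stayed under the threshold in 14, Ifit2 in 10, Usp18 in 8 and Ifi44 in 6. No group held 4 or more pools, so that no pool could be assessed as an outlier within its group.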

How the results depend on the processing

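Counts of members past the edgeR threshold depended on the setting more than their direction did. For amyloid in CD8 T cells (0 in the analysis reported), DESeq2 gave 8, no gene filter 26, leaving out WT-1 cells with shared receptors 11, the run as a replicate block 19, the block without WT-1 16, and leaving out a pool 0 to 19. In non-naive CD8 T cells (0) the same settings gave 9, 27, 16, 14, 30 and 0 to 28, the highest without WT-1. In naive CD8 T cells (0) no filter gave 2, the block 1, the block without WT-1 3 and leaving out a pool 0 to 2. In CD4 T cells (0) no filter gave 5, the block 1 and leaving out a pool 0 to 4. In γδ T cells (0) no filter, the block and the block without WT-1 gave 1 each, and for tau in CD8 T cells (0) no filter gave 11. For the difference between CD8 and CD4 T cells (5), DESeq2 gave 2, no filter 12, doublets kept 3, the block 11, the block without WT-1 13, non-naive clusters only 2 and leaving out a pool 3 to 7. For expanded against singleton cells, non-naive CD8 (4) gave 2 with DESeq2, 7 with no filter, 0 with no replicate block and 2 to 5 leaving out a pool. CD4 (5) gave 3 with no replicate block, 3 in non-naive clusters only and 3 to 6 leaving out a pool, and CD8 against CD4 by marker UMIs (14) gave 9 to 15. The block changed no other call.

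Leaving out a pool moved the γδ responding share difference between -0.126 (without PS-5X) and 2.38 points, and the expanded minus singleton share between -0.0532 and 0.556 points. The latter was -0.494 with at least 4 calling genes, -0.413 at 1500 UMIs and -1.68 without the shared-receptor cells of WT-1. Among single members, 25 values changed sign, none of them called in the analysis reported. Leaving out a pool, the log2 amyloid difference in naive CD8 T cells ran from -0.0288 to 0.350 for Stat2, -0.264 to 0.284 for Xaf1 and -1.72 to 0.0679 for Ifit1. In CD4 T cells it ran from -0.832 to 0.0661 for Ifi44 and -0.230 to 0.0919 for Trim30a. The tau difference in CD8 T cells ran from -0.0673 to 1.22 for Ifit3b and -0.616 to 1.36 for Rsad2, both lowest without PS-5X, and from -0.376 to 0.182 for Slfn8. With the replicate block, naive Xaf1 was -0.0406. With the block and without WT-1, naive Xaf1 was -0.117, CD4 Ifit2 0.149, CD4 Trim30a 0.0518, γδ Bst2 0.0536 and, for tau, Slfn8 0.0717. By marker UMIs, CD4 Parp14 was 0.0417, Trim30a 0.0103, Ddx58 0.0514 and γδ Oas3 -0.478. With doublets kept, γδ Ifit3b was 0.0350 and Bst2 0.0123. The cause of these changes was not tested. WT and 5XFAD had 2 pools each and PS19 and PS-5X 1, so a pool and its genotype cannot be told apart for the last 2. Depth limits WT-1 most, with 319 non-naive CD8 and 38 γδ cells.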
